A study of Mus musculus with 10 samples.

Results

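Tcf7, Lef1, Tox and Tox2 encode transcription factors that bind DNA through a high mobility group (HMG) box, and the openness of chromatin at their loci was followed in regulatory T (Treg) cells that lacked Fntb and in wild-type (WT) Treg cells. A region of the deposited count table was taken for 1 of these genes where it overlapped the gene's protein-coding span in GRCm38.p6, or, failing that, where this span was the nearest one within 100000 bp. Of 77076 regions in all, 118 met the rule, with 18 for Tcf7, 39 for Lef1, 47 for Tox and 14 for Tox2. All 118 passed the filter on low counts. The assignment gives a region's position and does not show which gene the region acts on.

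The libraries were made by ATAC-seq, in which a transposase cuts and tags open DNA, from splenic and lymph node Treg cells of mixed bone marrow chimeras, mice whose blood system is rebuilt with marrow of more than 1 genotype. There were 2 libraries of Fntb-deficient effector Treg cells (FntbKO eTreg), 2 of Fntb-deficient central Treg cells (FntbKO cTreg), 3 of WT eTreg cells and 3 of WT cTreg cells. Fntb encodes the beta subunit of farnesyltransferase, which adds a farnesyl lipid to proteins that carry a CAAX ending. The labels give neither the age of the mice nor the cell type in which Fntb was deleted, the host strain or the sorting gates. The design sets FntbKO against WT cells within each subset, and eTreg against cTreg cells within each genotype. Chromatin was measured in bulk, so a region open in fewer cells and a region less open in each cell cannot be told apart. The labels do not say that the libraries of a group come from separate mice, so p-values measure only the spread between these libraries.

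TCF1, the product of Tcf7, and LEF1 bind the same short DNA core, activate genes together with beta-catenin and repress them together with TLE corepressors. Naive and central T cells express both at high levels, and effector cells express less. TOX is needed for CD4 T cell development in the thymus and is induced through NFAT in chronically stimulated T cells, and its relative TOX2 is known from follicular helper T cells and, with TOX, from exhausted CD8 T cells.

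Total counts ran from 5058328 to 15328775 per library, and all levels below are CPM (counts scaled to a common library size) after TMM scaling. Of 11 regions at Fntb, 2 were called lower in FntbKO cells of both subsets. The one with the lower p of these (chr12:76837192-76837915) had 11.6 and 7.47 CPM in FntbKO eTreg, 13.1 and 11.1 CPM in FntbKO cTreg, 29.4, 30.3 and 30.2 CPM in WT eTreg, and 36.8, 29.2 and 33.05 CPM in WT cTreg libraries. Every FntbKO library lay below every WT library. Another Fntb region (chr12:76874004-76874477) was called higher in FntbKO eTreg cells (log2 0.90; edgeR adjusted p = 0.0412). The first principal component, with 32.6% of the variance, placed the libraries at 0.69 and 28.7 (FntbKO eTreg), -155.3 and -67.0 (FntbKO cTreg), 83.5, 65.0 and 130.2 (WT eTreg) and -56.7, 9.01 and -38.1 (WT cTreg). FntbKO cTreg 1 had the lowest value of all libraries and WT eTreg 3 the highest, and WT cTreg 2 lay within the range of the FntbKO eTreg libraries. Of 7 Treg markers 6 had a region, and these summed to between 925.4 and 1042.8 CPM in every library, while Tnfrsf18 had none. The 5 central Treg markers summed to 714.0 to 726.2 CPM in FntbKO eTreg against 815.2 to 849.0 CPM in FntbKO cTreg, and to 576.6 to 651.6 CPM in WT eTreg against 755.2 to 793.3 CPM in WT cTreg libraries. The 7 effector Treg markers summed to 566.0 to 592.8 CPM in FntbKO eTreg against 539.2 to 551.4 CPM in FntbKO cTreg, and to 604.6 to 636.6 CPM in WT eTreg against 585.6 to 601.5 CPM in WT cTreg libraries. Both lists thus separated the subsets within each genotype in the direction of their labels.

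The Tcf7 gene (identifier 21414; chr11:52246527-52283383, minus strand, 36.9 kb) held 9 of its 18 regions, and the other 9 lay upstream of the gene start, 4 of them over the lncRNA gene Gm30217. The region with the highest level, 16.5 kb upstream of the start (chr11:52299584-52300166), averaged 60.02 CPM over the 10 libraries. Regions 7.77 kb and 17.6 kb downstream averaged 45.4 and 42.9 CPM, while the regions nearest the gene start, centred 0.76 and 0.04 kb downstream of it, averaged 5.87 and 4.50 CPM. At Tcf7 the most open regions thus lay away from the start.

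Lef1 (identifier 16842; chr3:131110297-131224357, plus strand, 114.1 kb) held 27 of its 39 regions, and 11 lay upstream. Its highest region was 98.4 kb downstream of the start and inside the gene (chr3:131208391-131209002), at 93.6 CPM on average. A region 90.7 kb upstream averaged 83.4 CPM, and the one nearest the start, 2.04 kb downstream, averaged 56.0 CPM.

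Tox (identifier 252838; chr4:6686353-6991557, 305.2 kb, read from the minus strand as background knowledge) was the longest of these genes and held 43 of its 47 regions, with none upstream. The region over its start (chr4:6990169-6991644) had the highest level, 55.2 CPM on average, followed by a region 15.6 kb downstream at 45.4 CPM. Tox2 (identifier 269389; chr2:163203058-163324172, plus strand, 121.1 kb) held 7 of its 14 regions and the other 7 lay between 26.3 and 48.1 kb upstream. The region over the Tox2 start (chr2:163202845-163203871) averaged 59.1 CPM and the one 26.2 kb downstream 38.9 CPM. No region of the 118 overlapped the span of another protein-coding gene.

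RefSeq windows of 300 bases around annotated starts (250 before, 50 after; build GRCm38.p6) were at hand for Tcf7, Lef1 and Tox2, 11 windows in all, and 5 of them overlapped an open region. The 3 windows below are shown because each lies under a region whose values follow, 5′ to 3′ on the gene's strand, with motif matches in capitals. The motifs searched on both strands were the TCF/LEF core CTTTGA, the RUNX core TGTGGT, the AP-1 site TGANTCA, the ETS site CCGGAAGT and the GC box GGGCGG, where neighbouring matches may overlap.
Tcf7, chr11:52282546-52282845, minus strand: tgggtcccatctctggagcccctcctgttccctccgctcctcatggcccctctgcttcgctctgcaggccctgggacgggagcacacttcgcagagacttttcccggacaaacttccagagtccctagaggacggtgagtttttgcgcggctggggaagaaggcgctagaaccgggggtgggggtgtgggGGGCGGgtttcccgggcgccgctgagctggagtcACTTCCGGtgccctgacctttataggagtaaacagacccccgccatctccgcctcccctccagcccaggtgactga
Lef1, chr3:131112541-131112840, plus strand: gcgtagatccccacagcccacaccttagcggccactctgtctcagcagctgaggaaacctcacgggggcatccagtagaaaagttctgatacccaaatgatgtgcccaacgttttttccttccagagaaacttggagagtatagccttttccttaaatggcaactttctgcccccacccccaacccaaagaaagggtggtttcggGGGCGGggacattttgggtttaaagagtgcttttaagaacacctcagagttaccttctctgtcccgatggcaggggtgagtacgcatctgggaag
Tox2, chr2:163202877-163203176, plus strand: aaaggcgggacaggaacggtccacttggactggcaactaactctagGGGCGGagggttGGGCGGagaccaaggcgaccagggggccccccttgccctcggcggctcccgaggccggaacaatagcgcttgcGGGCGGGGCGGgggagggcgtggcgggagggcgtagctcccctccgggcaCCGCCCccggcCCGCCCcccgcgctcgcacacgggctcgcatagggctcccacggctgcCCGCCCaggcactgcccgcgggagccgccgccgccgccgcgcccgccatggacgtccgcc
The Tcf7 window holds 1 ETS site, which reads ACTTCCGG on this strand, and 1 GC box. The Lef1 window holds 1 GC box and the Tox2 window 7. Of 32851 windows of the same length, 35.66% held a GC box and 3.89% the ETS site, and 5257 held the TCF/LEF core. None of the 3 printed windows holds the TCF/LEF core, which occurs in 1 other Lef1 window (chr3:131156044-131156343, 2 matches) and in 2 overlapping Tox2 windows (chr2:163225203-163225502 and 1 base on), none of them under an open region.

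Summed over its regions and divided by their total length, accessibility averaged 43.1 CPM per kb of region at Tcf7, 34.4 at Lef1, 29.9 at Tox2 and 25.3 at Tox over the 10 libraries. In FntbKO eTreg cells the order of these levels was Tcf7 (45.6 ± 0.037), Lef1 (33.8 ± 0.32), Tox2 (27.9 ± 1.15) and Tox (25.2 ± 0.91 CPM per kb; SD, n = 2). FntbKO cTreg cells had Tcf7 at 44.7 ± 1.90, Lef1 at 35.8 ± 1.13, Tox at 31.0 ± 3.06 and Tox2 at 22.02 ± 1.06 CPM per kb, so that Tox stood above Tox2 there. In WT eTreg cells Tcf7 (40.0 ± 1.15) was followed by Tox2 (35.6 ± 2.19), Lef1 (33.2 ± 2.28) and Tox (21.7 ± 0.66 CPM per kb; SD, n = 3), and the mean ± SD ranges of Tox2 and Lef1 overlapped. WT cTreg cells had Tcf7 at 43.6 ± 2.39, Lef1 at 35.1 ± 0.31, Tox2 at 30.7 ± 3.22 and Tox at 25.3 ± 1.98 CPM per kb.

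Lef1 sums differed little between groups, while the Tcf7 sum was lower in the WT eTreg libraries than in the others. The Tcf7 sum was 314.7 and 315.1 CPM in FntbKO eTreg, 299.1 and 317.6 CPM in FntbKO cTreg, 267.6, 283.4 and 276.6 CPM in WT eTreg, and 302.7, 284.0 and 317.0 CPM in WT cTreg libraries. The WT eTreg values were the lowest, and no FntbKO eTreg value overlapped them, but the FntbKO over WT difference in eTreg cells was 0.21 on the log2 scale (SE 0.070; edgeR adjusted p = 0.128). Tcf7 passed in none of the comparisons of sums in the fit of all 10 libraries with no block. The Lef1 sum was 618.3 and 626.7 CPM in FntbKO eTreg, 674.0 and 644.7 CPM in FntbKO cTreg, 592.3, 659.3 and 582.0 CPM in WT eTreg, and 649.7, 646.6 and 638.7 CPM in WT cTreg libraries. Its log2 differences lay between -0.11 and 0.05 in the comparisons of subsets and genotypes, with no edgeR adjusted p under 0.368.

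Tox was lower in eTreg than in cTreg cells of both genotypes and higher in FntbKO than in WT cTreg cells. Its sum was 493.5 and 519.3 CPM in FntbKO eTreg, 665.7 and 578.8 CPM in FntbKO cTreg, 426.5, 451.8 and 432.1 CPM in WT eTreg, and 546.5, 467.1 and 510.8 CPM in WT cTreg libraries. The groups did not overlap within either genotype or within either subset. Such separation is common with 2 or 3 libraries a group. Among single regions it was seen between subsets at 48.6% in FntbKO and 21.9% in WT cells. Between genotypes it was seen at 31.1% in eTreg and 29.7% in cTreg cells. The share among gene sums was not computed. eTreg over cTreg, Tox fell by 0.31 on the log2 scale in FntbKO cells (SE 0.079; adjusted p = 0.0416, against 1.86% of 15895 gene sums called, 1.11% higher and 0.749% lower) and by 0.25 in WT cells (SE 0.065; adjusted p = 0.0344; 3.17% called, 1.38% higher and 1.79% lower). FntbKO over WT, it rose by 0.30 in cTreg cells (SE 0.072; adjusted p = 0.0314; 2.3% called, 0.868% higher and 1.43% lower), and in eTreg cells the difference was 0.24 (SE 0.072; adjusted p = 0.105; 0.736% called).

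Tox2 moved the other way. Its sum was 186.4 and 175.8 CPM in FntbKO eTreg, 138.3 and 148.1 CPM in FntbKO cTreg, 244.6, 216.3 and 233.8 CPM in WT eTreg, and 179.5, 221.2 and 198.3 CPM in WT cTreg libraries. Every FntbKO library lay below the WT libraries of its subset. FntbKO over WT, Tox2 fell by 0.47 on the log2 scale in cTreg cells (SE 0.086; edgeR adjusted p = 0.00659). The difference in eTreg cells was -0.33 (SE 0.086; adjusted p = 0.0660), and it passed with DESeq2 (adjusted p = 0.0195) and with library totals in place of TMM (adjusted p = 0.0478). eTreg over cTreg, Tox2 differed by 0.31 in FntbKO cells (SE 0.094; adjusted p = 0.0929) and by 0.18 in WT cells (SE 0.076; adjusted p = 0.235), and WT cTreg 2 overlapped the WT eTreg libraries. No sum passed the interaction of genotype and subset, with edgeR adjusted p at 0.9999 for each of the 4 genes and 0 of 15895 sums called (476 at an unadjusted p under 0.05).

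Each of the 4 calls on sums was lost without at least 1 library. Without FntbKO cTreg 1, Tox2 in cTreg cells had a log2 difference of -0.42 (edgeR adjusted p = 0.123) and Tox 0.20 (adjusted p = 0.421), and Tox in FntbKO cells, eTreg over cTreg, -0.22 (adjusted p = 0.617). The Tox genotype call in cTreg cells was also lost without WT cTreg 2 or WT cTreg 3. The Tox subset call in WT cells was lost on leaving out any 1 of WT eTreg 1, WT eTreg 3, WT cTreg 1 and WT cTreg 3, with differences of -0.30 to -0.21 over the 10 fits that each left out 1 library. That in FntbKO cells was lost without WT eTreg 1, WT cTreg 3 or any of FntbKO cTreg 1, FntbKO eTreg 1 and FntbKO eTreg 2, with differences of -0.41 to -0.22. Without WT cTreg 2, Tox2 passed between subsets, with log2 differences of 0.31 in FntbKO cells (adjusted p = 0.0372) and 0.27 in WT cells (adjusted p = 0.0372), and between genotypes in eTreg cells (log2 -0.34; adjusted p = 0.0223), where it also passed without WT cTreg 1 (log2 -0.33; adjusted p = 0.0381).

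**Figure D1:**
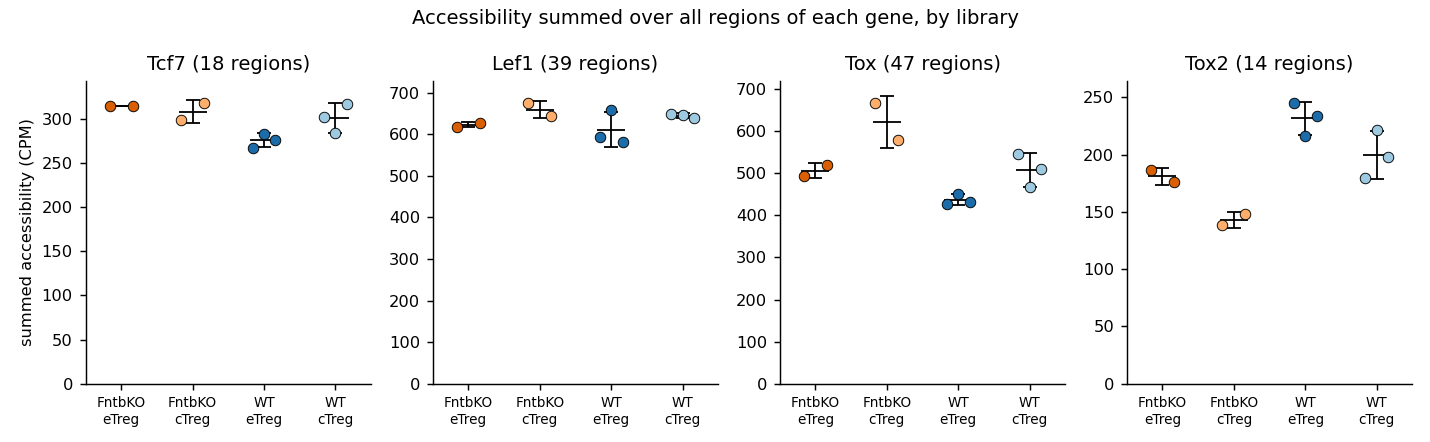
Accessibility summed over all regions of each gene (CPM, y axis from 0), 1 point per library, with FntbKO eTreg, FntbKO cTreg, WT eTreg and WT cTreg from left to right and bars for mean and SD (n = 2 FntbKO, n = 3 WT). Tox is highest in FntbKO cTreg libraries (665.7 and 578.8 CPM) where Tox2 is lowest (138.3 and 148.1 CPM), while the 4 groups of Lef1 lie between 582.0 and 674.0 CPM.

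Tox and Tox2 levels ran opposite across the libraries. The log2 ratio of the Tox2 sum over the Tox sum was -1.40 and -1.56 in FntbKO eTreg, -2.27 and -1.97 in FntbKO cTreg, -0.80, -1.06 and -0.89 in WT eTreg, and -1.61, -1.078 and -1.37 in WT cTreg libraries. Within each genotype every eTreg library had a higher ratio than every cTreg library, though WT cTreg 2 at -1.078 lay next to WT eTreg 2 at -1.06. Both FntbKO cTreg libraries had a lower ratio than any other library. The first principal component of all regions also placed the FntbKO cTreg libraries lowest and the WT eTreg libraries highest, so this order is not particular to the 2 genes. The part of that component in the ratio was not tested. Markers of other cells moved in part the same way. Of the 7 naive conventional CD4 T cell markers some, Ccr7 and Il7r among them, are also on the central Treg list. All had a region and they summed to 445.1 to 479.1 CPM in FntbKO eTreg, 543.1 to 578.1 CPM in FntbKO cTreg, 361.7 to 420.4 CPM in WT eTreg and 474.3 to 523.2 CPM in WT cTreg libraries, as Tox did. Of 7 B cell markers 3 had a region. They summed to 61.9 to 82.9 CPM in FntbKO eTreg, 48.9 to 67.3 CPM in FntbKO cTreg, 82.8 to 89.9 CPM in WT eTreg and 67.4 to 81.7 CPM in WT cTreg libraries, as Tox2 did. Cd79a, Cd79b and Ms4a1 were among those without one. Of 7 myeloid markers 5 had a region (Lyz2 and Csf1r had none). They summed to 84.3 to 92.1 CPM in FntbKO eTreg, 68.5 to 73.1 CPM in FntbKO cTreg, 93.8 to 99.2 CPM in WT eTreg and 77.2 to 97.0 CPM in WT cTreg libraries. Here too FntbKO lay below WT in both subsets, as Tox2 did. Of 5 dendritic cell markers 3 had a region (Xcr1 and Siglech had none). They summed to 262.1 to 270.8 CPM in FntbKO eTreg, 226.6 to 257.1 CPM in FntbKO cTreg, 276.7 to 303.9 CPM in WT eTreg and 250.9 to 311.0 CPM in WT cTreg libraries. Of 7 CD8 T or NK cell markers 5 had a region. They summed to 27.4 to 28.9 CPM in FntbKO eTreg and 42.4 to 44.3 CPM in FntbKO cTreg libraries. WT eTreg libraries had 39.0 to 41.2 CPM and WT cTreg libraries 36.4 to 49.7 CPM. FntbKO eTreg was thus lowest, as for neither Tox nor Tox2. Of 4 erythroid markers 3 had a region, which summed to between 20.4 and 32.3 CPM, and the groups overlapped. The part of these markers in the Tox and Tox2 values was not tested.

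**Figure D2:**
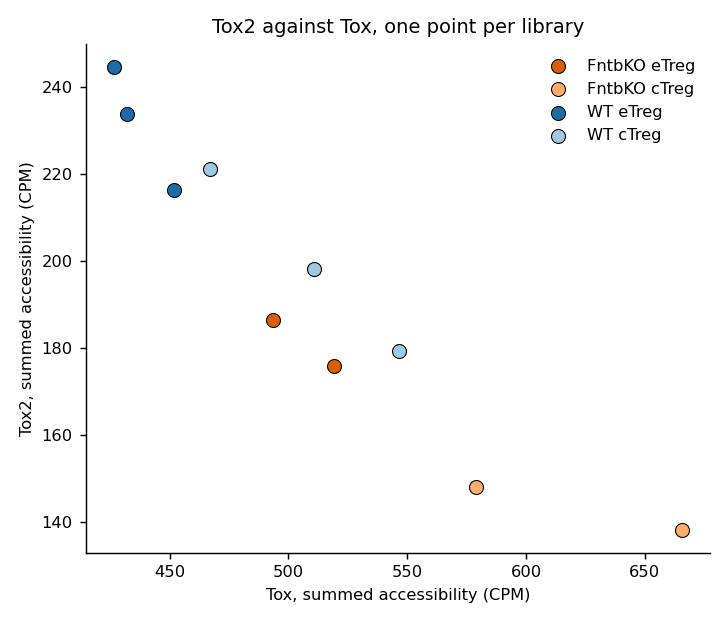
Summed Tox2 accessibility (y axis, CPM) against summed Tox accessibility (x axis, CPM), 1 point per library, coloured by group; neither axis starts at 0. WT eTreg libraries lie at the upper left (Tox2 from 216.3 to 244.6 CPM) and FntbKO cTreg libraries at the lower right (138.3 and 148.1 CPM), with FntbKO eTreg and WT cTreg libraries between them on the Tox axis. On the Tox2 axis WT cTreg 2 (221.2 CPM) lies within the range of the WT eTreg libraries.

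At single regions, eTreg against cTreg, 3 of the 118 regions were called in FntbKO cells (1 higher, 2 lower) and 7 in WT cells (3 higher, 4 lower). Of all 76216 tested regions 1.35% were called in FntbKO (0.964% higher, 0.39% lower) and 3.44% in WT cells (1.83% higher, 1.61% lower). With the 2 genotypes averaged, 14 were called (5 higher, 9 lower), where 11% of all regions were (6.14% higher, 4.84% lower). All 5 higher regions were at Tox2 and all 9 lower ones at Lef1 and Tox. The share called was 11.9% of the 118 regions, near that of all regions. By gene it was 10.3% at Lef1, 10.6% at Tox and 35.7% at Tox2 (5 of 14 regions), so only Tox2 stood above 11%. Of these 5, the regions 36.4 and 36.8 kb upstream are direct neighbours, and with the one 47.7 kb upstream they averaged only 5.05, 3.44 and 3.12 CPM. Regions of 1 gene need not vary independently, so this share rests on few regions. The eTreg and cTreg libraries of both genotypes did not overlap at 8 of the 118 regions, beside 6.12% of all regions. The median log2 difference with genotypes averaged was -0.10 over the 18 Tcf7 regions, -0.23 over the 39 Lef1 regions, -0.29 over the 47 Tox regions and 0.33 over the 14 Tox2 regions, beside -0.01 over all tested regions. FntbKO and WT cells gave the same sign at 14 of 18 Tcf7, 30 of 39 Lef1, 36 of 47 Tox and 11 of 14 Tox2 regions. The share with the same sign among all tested regions was not computed, so whether these counts are particular to the members was not tested.

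With all 10 libraries and no block, no Tcf7 region was called by edgeR, DESeq2 or limma-voom in this comparison, whether genotypes were averaged (3 regions at an unadjusted p under 0.05 with each tool) or not (2 in FntbKO and 1 in WT cells). The region with the smallest p with genotypes averaged, 27.6 kb upstream of the start and over Gm30217 (chr11:52310837-52311136), had 5.21 and 5.02 CPM in FntbKO eTreg, 9.43 and 8.36 CPM in FntbKO cTreg, 7.95, 6.37 and 5.94 CPM in WT eTreg, and 10.2, 5.16 and 11.8 CPM in WT cTreg libraries. WT cTreg 2 was the lowest WT library there, and the log2 difference was -0.62 (SE 0.21; edgeR adjusted p = 0.0550). Without WT cTreg 2 it was -0.75 (adjusted p = 0.00852), and with halved counts it also passed (log2 -0.60; adjusted p = 0.0453). The region 22.3 kb downstream, inside Tcf7 (chr11:52260965-52261259), had 10.0 and 10.2 CPM in FntbKO eTreg against 3.83 and 7.45 CPM in FntbKO cTreg libraries, and its log2 difference of 0.79 did not pass (SE 0.31; adjusted p = 0.206).

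At Lef1 the clearest difference between subsets lay 89.8 kb downstream of the start, inside the gene (chr3:131199589-131200631). This region had 6.81 and 6.88 CPM in FntbKO eTreg against 15.99 and 13.9 CPM in FntbKO cTreg, and 6.51, 7.17 and 4.41 CPM in WT eTreg against 14.5, 8.25 and 13.3 CPM in WT cTreg libraries. Every eTreg library lay below every cTreg library. With genotypes averaged it was 2.07-fold lower in eTreg cells (log2 -1.05, SE 0.19; edgeR adjusted p = 0.000698), and the call held in each of the 10 fits without 1 library. It was also called within FntbKO (log2 -1.12; adjusted p = 0.0438) and within WT cells (log2 -0.98; adjusted p = 0.0208). Within FntbKO cells the call was lost with library totals in place of TMM and without any 1 of FntbKO cTreg 1, FntbKO eTreg 1, FntbKO eTreg 2, WT eTreg 1 and WT cTreg 3 (log2 -1.22 to -1.02). Within WT cells it was lost without any 1 of WT cTreg 1, WT eTreg 1, WT cTreg 3 and WT eTreg 3 (log2 -1.18 to -0.82). A smaller region 57.6 kb downstream (chr3:131167832-131168043) had 3.00 and 3.05 CPM in FntbKO eTreg against 5.19 and 4.34 CPM in FntbKO cTreg, and 1.33, 2.59 and 1.19 CPM in WT eTreg against 4.47, 3.95 and 4.96 CPM in WT cTreg libraries. Its subset groups did not overlap either, and it was 2.54-fold lower in WT eTreg than in WT cTreg cells (log2 -1.34, SE 0.36; adjusted p = 0.0378), a call lost without the same 4 WT libraries (log2 -1.81 to -1.16), with DESeq2 (adjusted p = 0.0536) and with limma-voom (adjusted p = 0.0529). With genotypes averaged it fell by 0.99 (adjusted p = 0.0202), a call lost without WT cTreg 3, FntbKO cTreg 1, FntbKO eTreg 1 or FntbKO eTreg 2 (log2 -1.22 to -0.90). Regions 43.8 and 49.4 kb downstream were also lower with genotypes averaged, at log2 -0.43 and -0.46 (SE 0.13 and 0.14), but their calls were rarely kept. The first was lost on leaving out any library but WT cTreg 1, WT eTreg 2 and WT cTreg 3 (log2 -0.53 to -0.36) and with DESeq2 (adjusted p = 0.0522). The second was lost on leaving out any library but WT cTreg 1, WT cTreg 2, WT eTreg 2 and FntbKO cTreg 2 (log2 -0.52 to -0.40). The most open Lef1 region, 98.4 kb downstream, had 91.1 and 90.7 CPM in FntbKO eTreg, 103.2 and 88.3 CPM in FntbKO cTreg, 94.8, 91.6 and 79.4 CPM in WT eTreg, and 109.1, 95.9 and 91.7 CPM in WT cTreg libraries. Its log2 difference was -0.11 (SE 0.076; adjusted p = 0.375).

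At Tox the fall in eTreg cells was clearest in 2 neighbouring regions in the first part of the gene. The region 15.6 kb downstream of the start (chr4:6975680-6976232) had 35.2 and 34.3 CPM in FntbKO eTreg against 87.8 and 62.1 CPM in FntbKO cTreg, and 32.9, 34.8 and 27.5 CPM in WT eTreg against 54.7, 38.2 and 46.9 CPM in WT cTreg libraries. All 5 eTreg libraries lay below all 5 cTreg libraries, and FntbKO cTreg 1 was the highest. With genotypes averaged the region was 1.77-fold lower in eTreg cells (log2 -0.82, SE 0.11; edgeR adjusted p = 7.55e-05). It fell by 1.10 on the log2 scale in FntbKO cells (adjusted p = 0.00325) and by 0.55 in WT cells (adjusted p = 0.0300), and the interaction did not pass (log2 -0.55, SE 0.22; adjusted p = 0.9999). The region 20.9 kb downstream (chr4:6970368-6970951) had 20.8 and 24.8 CPM in FntbKO eTreg against 44.6 and 34.7 CPM in FntbKO cTreg, and 18.3, 20.9 and 17.0 CPM in WT eTreg against 41.9, 23.7 and 34.2 CPM in WT cTreg libraries. WT cTreg 2 was the only cTreg library within the range of the eTreg libraries. With genotypes averaged it was 1.74-fold lower in eTreg cells (log2 -0.80, SE 0.13; adjusted p = 0.000433), and within WT cells it fell by 0.83 (adjusted p = 0.00818). Both averaged calls held in each of the 10 fits without 1 library. Within FntbKO cells the first was lost without FntbKO cTreg 1 (log2 -0.84; adjusted p = 0.155) or FntbKO eTreg 2 (adjusted p = 0.103). Within WT cells it was lost when any 1 of WT cTreg 1, WT cTreg 3, WT eTreg 1 and WT eTreg 3 was left out (log2 -0.67 to -0.42) and with limma-voom (adjusted p = 0.0692). The second was lost when WT eTreg 3, WT cTreg 1 or WT cTreg 3 was left out (log2 -1.01 to -0.63).

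Farther into Tox, regions 89.2, 90.1 and 302.7 kb downstream were lower in eTreg cells with genotypes averaged, at log2 -0.53, -0.60 and -0.53 (SE 0.14, 0.14 and 0.17; edgeR adjusted p = 0.0180, 0.00817 and 0.0432). The call at 90.1 kb was lost without FntbKO eTreg 2 (log2 -0.53; adjusted p = 0.0776). That at 89.2 kb was lost without WT cTreg 3, FntbKO cTreg 1 or FntbKO eTreg 2 (log2 -0.64 to -0.44). That at 302.7 kb was lost on leaving out any library but WT eTreg 1, WT cTreg 2 and FntbKO cTreg 2 (log2 -0.61 to -0.45) and with DESeq2 (adjusted p = 0.0631). The region over the Tox start was not called between subsets (log2 -0.23 with genotypes averaged, SE 0.089; adjusted p = 0.0892).

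Tox2 was the member whose called regions were all higher in eTreg cells. Its largest log2 differences among the called regions lay in a cluster upstream of the gene, at least 65.2 kb from the next protein-coding gene, Gtsf1l. The region 36.4 kb upstream (chr2:163166501-163166806) had 6.81 and 4.92 CPM in FntbKO eTreg against 1.23 and 2.20 CPM in FntbKO cTreg, and 12.3, 5.87 and 8.48 CPM in WT eTreg against 3.63, 2.92 and 2.11 CPM in WT cTreg libraries. All eTreg libraries lay above all cTreg libraries. With genotypes averaged it was 3.13-fold higher in eTreg cells (log2 1.64, SE 0.27; edgeR adjusted p = 0.000352), with log2 1.66 in FntbKO (adjusted p = 0.0442) and 1.63 in WT cells (adjusted p = 0.00760). The region 47.7 kb upstream (chr2:163155131-163155559) had 3.404 and 4.52 CPM in FntbKO eTreg against 1.37 and 1.17 CPM in FntbKO cTreg, and 5.30, 3.48 and 6.27 CPM in WT eTreg against 1.95, 1.72 and 2.01 CPM in WT cTreg libraries. The subsets again did not overlap. It was 2.88-fold higher with genotypes averaged (log2 1.53, SE 0.30; adjusted p = 0.00158) and 2.59-fold higher within WT cells (adjusted p = 0.0359). Both averaged calls held in each of the 10 fits without 1 library. Coverage was thin, with 9 and 34 counts in FntbKO cTreg libraries at 36.4 kb and 10 and 18 counts at 47.7 kb. Within WT cells the call at 36.4 kb was lost without WT eTreg 1 or WT cTreg 3 (log2 1.31 and 1.42). That at 47.7 kb was lost without any 1 of 5 WT libraries, all but WT eTreg 2 (log2 1.20 to 1.60), and with limma-voom (adjusted p = 0.0639). Within FntbKO cells the call at 36.4 kb was lost without any 1 of 6 libraries (WT eTreg 1, WT cTreg 3, WT eTreg 3, FntbKO cTreg 1, FntbKO eTreg 1 and FntbKO eTreg 2; log2 1.38 to 2.21) and with limma-voom (adjusted p = 0.0841).

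Next to it, the region 36.8 kb upstream (chr2:163166085-163166354) had 3.60 and 2.95 CPM in FntbKO eTreg against 0.82 and 2.33 CPM in FntbKO cTreg, and 8.31, 4.58 and 5.09 CPM in WT eTreg against 2.79, 1.38 and 2.53 CPM in WT cTreg libraries. It was 2.63-fold higher in eTreg cells within WT (edgeR adjusted p = 0.0409) and 2.23-fold higher with genotypes averaged (adjusted p = 0.0168), with every eTreg library above every cTreg library. The WT call was lost without FntbKO eTreg 1 or any WT library but WT eTreg 2 (log2 1.081 to 1.575), with DESeq2 (adjusted p = 0.0505) and with limma-voom (adjusted p = 0.0518). The averaged call was lost without WT eTreg 1, FntbKO cTreg 1, FntbKO eTreg 1 or FntbKO eTreg 2 (log2 0.93 to 1.67). Inside Tox2, the region 26.2 kb downstream rose by 0.40 on the log2 scale with genotypes averaged (SE 0.094; adjusted p = 0.00655; 0.0517 without FntbKO eTreg 2). The region 29.2 kb downstream rose by 0.75 (SE 0.22; adjusted p = 0.0272), lost without WT eTreg 2, WT cTreg 3, FntbKO cTreg 1, FntbKO eTreg 1 or FntbKO eTreg 2 (log2 0.61 to 0.95). The region over the Tox2 start, under the window with 7 GC boxes printed above, had 68.5 and 56.7 CPM in FntbKO eTreg, 47.3 and 47.9 CPM in FntbKO cTreg, 66.7, 55.4 and 62.4 CPM in WT eTreg, and 51.5, 72.5 and 62.0 CPM in WT cTreg libraries. The groups overlapped in WT cells, and the log2 difference with genotypes averaged was 0.19 (SE 0.091; adjusted p = 0.195).

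**Figure D3:**
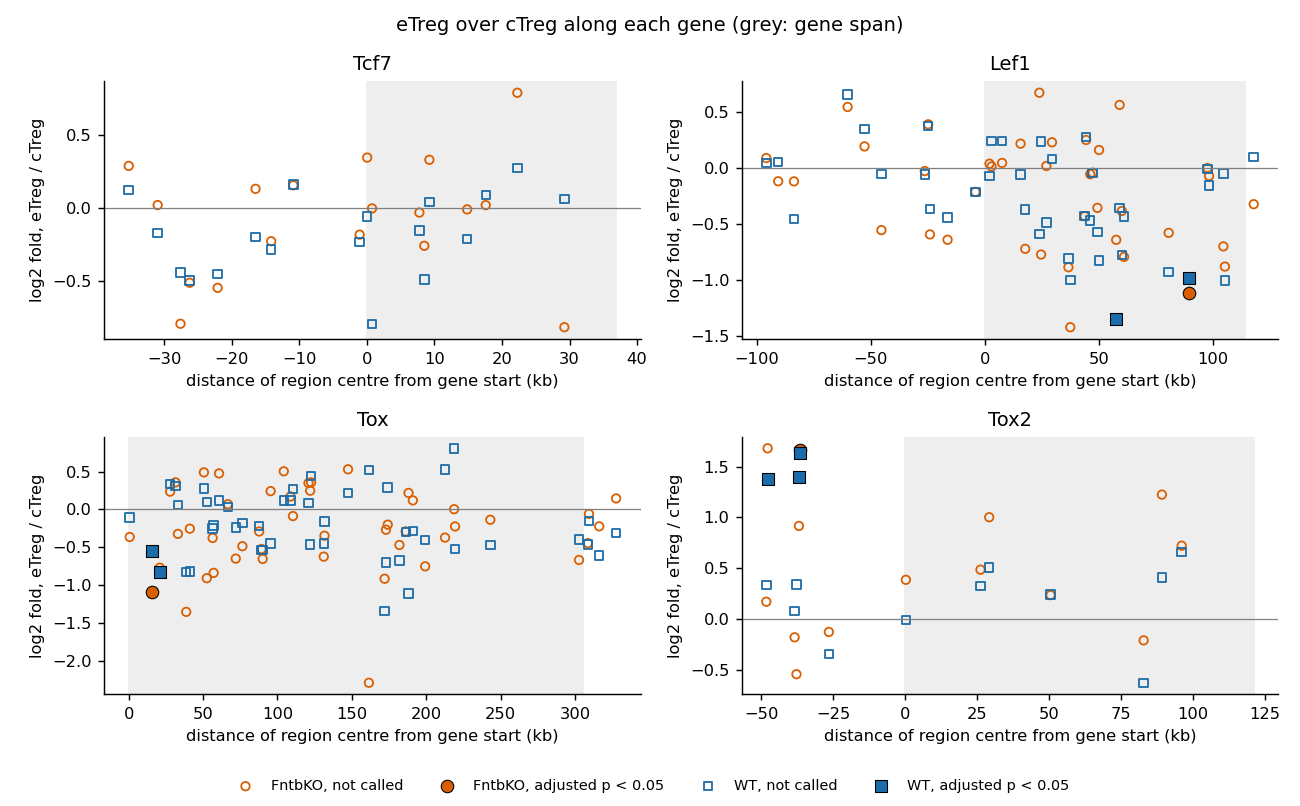
Log2 fold change of eTreg over cTreg (y axis) for each region against the distance of its centre from the gene start (x axis, kb; negative is upstream, grey is the gene span), with circles for FntbKO and squares for WT and filled symbols for an adjusted p under 0.05. The filled symbols at Tox2 lie upstream of the gene and above 0, between 1.37 and 1.66, while those at Lef1 and Tox lie inside the gene and below 0.

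Between genotypes, 0 of the 118 regions were called in eTreg cells by edgeR, where 24 had an unadjusted p under 0.05 and DESeq2 and limma-voom called 1 each, and 3 were called in cTreg cells (2 higher, 1 lower in FntbKO). Of all tested regions 0.353% were called in eTreg and 0.568% in cTreg cells (0.19% higher, 0.378% lower). With the 2 subsets averaged 10 were called (4 higher, 6 lower), where 3.99% of all regions were (1.82% higher, 2.17% lower). In FntbKO cells 3 Tox regions were higher, 5 Tox2 regions were lower, and Lef1 had 1 of each. The share called was 8.47% of the 118 regions, with 5.13% at Lef1, 6.38% at Tox and 35.7% at Tox2 (5 of 14 regions). The FntbKO and WT libraries of both subsets did not overlap at 5 of the 118 regions, beside 4.09% of all regions. The median log2 difference with subsets averaged was 0.10 over the Tcf7 regions, 0.19 over the Lef1 regions, 0.26 over the Tox regions and -0.58 over the Tox2 regions, beside -0.00 over all tested regions. FntbKO was below WT at 12 of 14 Tox2 regions and above WT at 39 of 47 Tox regions, on the fitted averages.

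With all 10 libraries and no block, no Tcf7 region was called between genotypes by edgeR, DESeq2 or limma-voom in eTreg cells (3 regions at an unadjusted p under 0.05 with each tool), in cTreg cells (0 with each) or with subsets averaged (3 with edgeR, 2 with the others). The region with the smallest p with subsets averaged, 7.77 kb downstream of the start (chr11:52275349-52275878), had 48.9 and 51.0 CPM in FntbKO eTreg, 49.8 and 52.4 CPM in FntbKO cTreg, 36.6, 37.5 and 45.8 CPM in WT eTreg, and 40.1, 41.1 and 51.0 CPM in WT cTreg libraries. Its log2 difference was 0.27 (SE 0.090; edgeR adjusted p = 0.0852), and 0.33 without WT cTreg 3 (adjusted p = 0.0458). In eTreg cells the smallest p was at the region under the Tcf7 window printed above (chr11:52282454-52282791), which had 9.01 and 5.31 CPM in FntbKO eTreg against 4.10, 3.19 and 3.90 CPM in WT eTreg libraries (log2 0.91, SE 0.33; adjusted p = 0.249). The Lef1 region under the printed window (chr3:131111897-131112782) lay between 53.1 and 61.0 CPM in every library.

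At Lef1, the region 49.4 kb downstream (chr3:131159520-131159854) had 17.6 and 15.9 CPM in FntbKO eTreg, 23.2 and 19.7 CPM in FntbKO cTreg, 9.88, 12.0 and 9.50 CPM in WT eTreg, and 13.96, 16.2 and 16.8 CPM in WT cTreg libraries. Within each subset the FntbKO libraries lay above the WT libraries, and with subsets averaged the region rose by 0.55 on the log2 scale (SE 0.13; edgeR adjusted p = 0.0181). The call was lost without FntbKO cTreg 1, FntbKO eTreg 1 or FntbKO eTreg 2 (log2 0.50 to 0.61). The region 52.8 kb upstream (chr3:131057163-131057760) had 38.2 and 51.1 CPM in FntbKO eTreg against 58.0, 65.0 and 60.03 CPM in WT eTreg, and 38.0 and 41.0 CPM in FntbKO cTreg against 53.2, 52.8 and 38.7 CPM in WT cTreg libraries. It fell by 0.35 with subsets averaged (SE 0.098; adjusted p = 0.0385), a call lost on leaving out any library but WT cTreg 3 and FntbKO eTreg 2 (log2 -0.48 to -0.27) and with limma-voom (adjusted p = 0.0558).

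The 2 Tox regions called between genotypes in cTreg cells were the ones with the highest levels at this gene. The region over the Tox start had 55.5 and 57.0 CPM in FntbKO eTreg against 43.6, 45.9 and 52.2 CPM in WT eTreg, and 81.9 and 64.0 CPM in FntbKO cTreg against 55.4, 43.5 and 52.6 CPM in WT cTreg libraries. FntbKO libraries lay above WT libraries in both subsets. It rose by 0.52 on the log2 scale in cTreg cells (SE 0.12; edgeR adjusted p = 0.0465) and by 0.39 with subsets averaged (SE 0.089; adjusted p = 0.0125). The region 15.6 kb downstream, whose values stand above, rose by 0.67 in cTreg cells (SE 0.14; adjusted p = 0.0294), while its difference in eTreg cells was 0.12 (SE 0.16; adjusted p = 0.809), and by 0.39 with subsets averaged (adjusted p = 0.0381). FntbKO cTreg 1 was the highest library at both regions. Without it the differences in cTreg cells were 0.34 and 0.41 (adjusted p = 0.730 and 0.661) and the averaged ones 0.30 and 0.27 (adjusted p = 0.114 and 0.236). The call over the start was also lost in cTreg cells without WT cTreg 2 (log2 0.42) or any other library but WT cTreg 1 and FntbKO cTreg 2. It was lost without FntbKO eTreg 2 with subsets averaged (log2 0.38; adjusted p = 0.0673). That at 15.6 kb was also lost without WT cTreg 2 (log2 0.55), WT eTreg 1 or WT cTreg 3 in cTreg cells, and with subsets averaged on leaving out any library but WT cTreg 1, WT eTreg 2 and FntbKO cTreg 2 (log2 0.27 to 0.51). With limma-voom neither passed in cTreg cells (adjusted p = 0.0585 each), nor the one at 15.6 kb with subsets averaged (adjusted p = 0.0963). The third Tox region called with subsets averaged, 89.2 kb downstream, rose by 0.49 (SE 0.14; adjusted p = 0.0497), a call lost on leaving out any library but WT cTreg 1, WT cTreg 3 and FntbKO cTreg 2 (log2 0.38 to 0.58). It was also lost with DESeq2 (adjusted p = 0.0604), limma-voom (adjusted p = 0.0595), library totals (adjusted p = 0.0539) and no filter on low counts (adjusted p = 0.05003).

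Within the Tox2 gene 5 of 7 regions were lower in FntbKO cells with subsets averaged. The region 26.2 kb downstream of the start (chr2:163229035-163229504) had 34.4 and 35.8 CPM in FntbKO eTreg against 54.9, 46.7 and 47.3 CPM in WT eTreg, and 23.2 and 26.7 CPM in FntbKO cTreg against 44.9, 39.9 and 34.7 CPM in WT cTreg libraries. In each subset all FntbKO libraries lay below all WT libraries. With subsets averaged it was 1.49-fold lower in FntbKO cells (log2 -0.58, SE 0.095; edgeR adjusted p = 0.000678), and in cTreg cells it fell by 0.66 (SE 0.13; adjusted p = 0.0171), while in eTreg cells the difference was -0.50 (adjusted p = 0.0949). The region 96.1 kb downstream (chr2:163298924-163299363) had 2.00 and 2.36 CPM in FntbKO eTreg against 6.75, 5.57 and 6.10 CPM in WT eTreg, and 0.82 and 1.68 CPM in FntbKO cTreg against 3.07, 4.47 and 4.12 CPM in WT cTreg libraries. No FntbKO library reached the lowest WT library, and with subsets averaged the region was 2.82-fold lower (log2 -1.50, SE 0.28; adjusted p = 0.00274). Its coverage was thin, with 10 and 24 counts in FntbKO eTreg and 6 and 26 counts in FntbKO cTreg libraries. These 2 averaged calls held in each of the 10 fits without 1 library. The cTreg call at 26.2 kb was lost without WT cTreg 1 (log2 -0.56; adjusted p = 0.0626) or FntbKO cTreg 1 (log2 -0.57; adjusted p = 0.332).

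The other 3 Tox2 calls between genotypes lay in the same part of the gene. The region 50.5 kb downstream (chr2:163253162-163254044) had 23.4 and 22.1 CPM in FntbKO eTreg against 32.9, 33.3 and 36.3 CPM in WT eTreg, and 21.1 and 17.9 CPM in FntbKO cTreg against 22.6, 39.0 and 25.8 CPM in WT cTreg libraries. WT cTreg 2 was the highest library of all there. It fell by 0.58 on the log2 scale with subsets averaged (SE 0.13; edgeR adjusted p = 0.00821; 0.0585 without FntbKO eTreg 2). The region 89.2 kb downstream (chr2:163292093-163292465) was thinly covered, with 17 counts in the FntbKO eTreg and 12 in the FntbKO cTreg libraries together, against 89 in the WT eTreg and 60 in the WT cTreg libraries. FntbKO cTreg 1 had 0. Its log2 difference was -2.05 (SE 0.44; adjusted p = 0.00750; 0.0557 without FntbKO eTreg 2) and ran from -4.52 without FntbKO cTreg 2 to -1.71 without FntbKO cTreg 1. The region 29.2 kb downstream (chr2:163232117-163232472) had 10.4 and 9.05 CPM in FntbKO eTreg against 13.98, 18.6 and 10.9 CPM in WT eTreg, and 3.69 and 5.64 CPM in FntbKO cTreg against 5.86, 14.8 and 10.6 CPM in WT cTreg libraries. It fell by 0.85 (SE 0.22; adjusted p = 0.0296), a call lost on leaving out any library but WT cTreg 1, WT eTreg 3 and FntbKO cTreg 2 (log2 -1.04 to -0.70). The region over the Tox2 start had log2 differences of 0.02 in eTreg cells and -0.38 in cTreg cells (SE 0.13 each; adjusted p = 0.973 and 0.200).

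**Figure D4:**
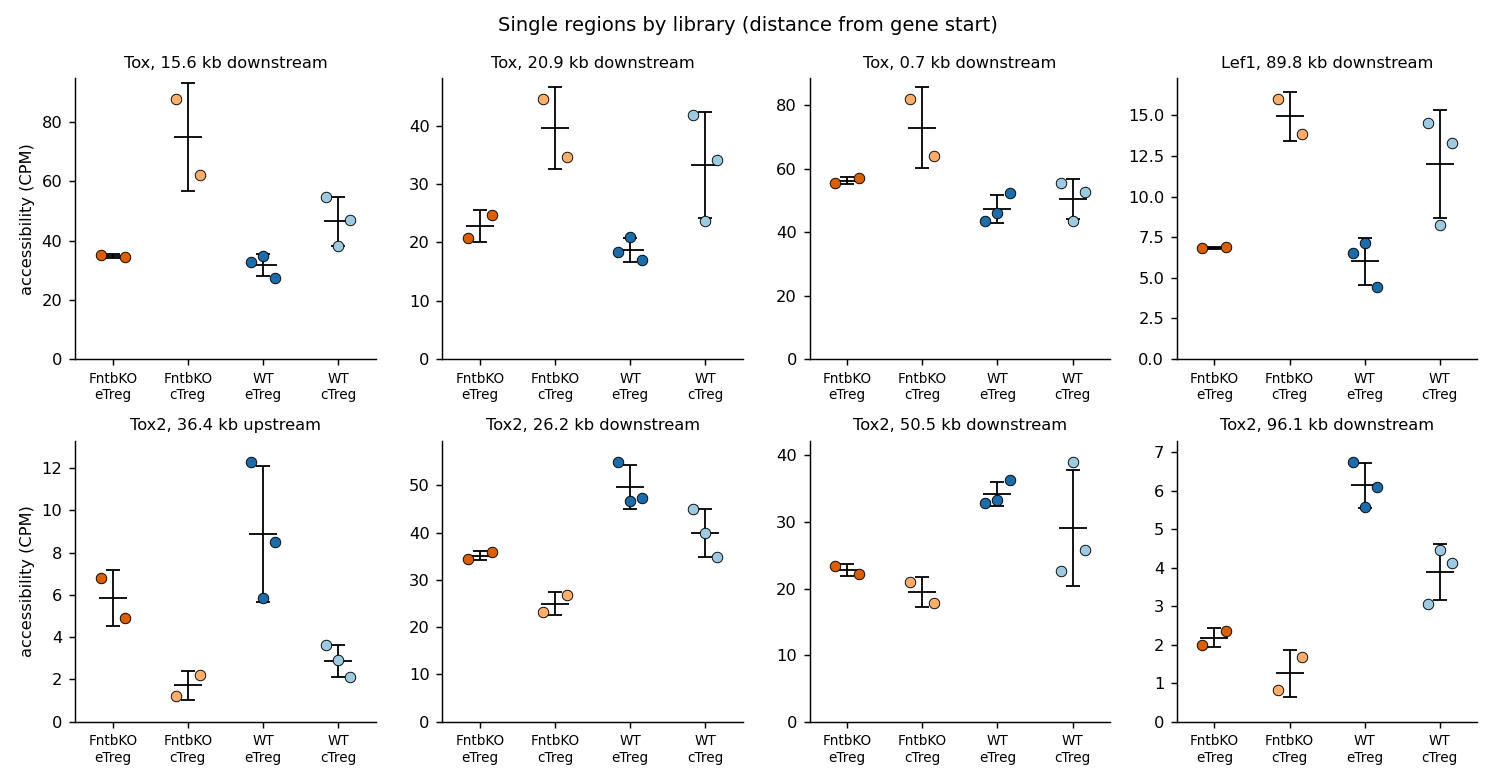
Accessibility (CPM, y axis from 0) of 8 regions, 1 point per library, with FntbKO eTreg, FntbKO cTreg, WT eTreg and WT cTreg from left to right and bars for mean and SD (n = 2 FntbKO, n = 3 WT). The Tox region 15.6 kb downstream is high in both cTreg groups and highest in FntbKO cTreg 1 (87.8 CPM), and the Tox2 region 96.1 kb downstream is at or under 2.36 CPM in every FntbKO library and at or above 3.07 CPM in every WT library.

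**Figure D5:**
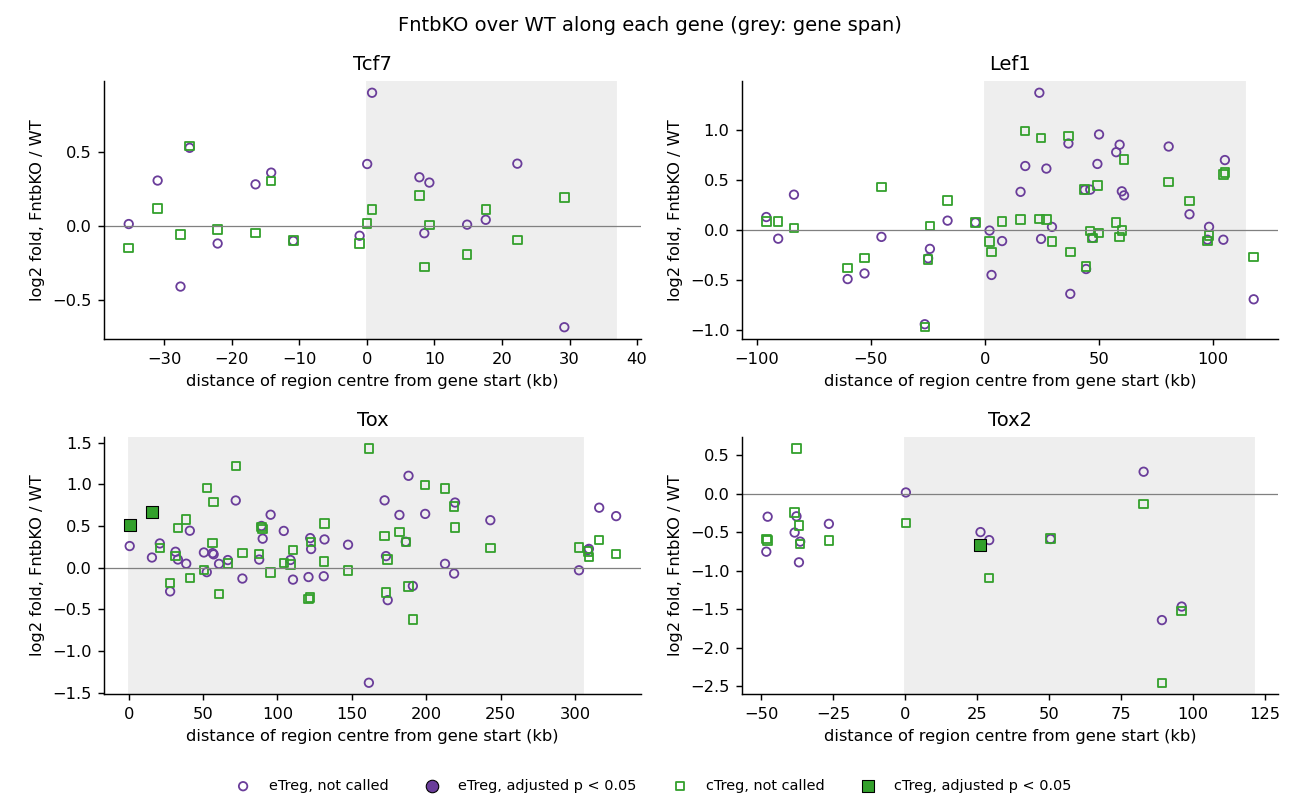
Log2 fold change of FntbKO over WT (y axis) for each region against the distance of its centre from the gene start (x axis, kb; negative is upstream, grey is the gene span), with circles for eTreg and squares for cTreg and filled symbols for an adjusted p under 0.05. Most Tox2 points lie below 0 and most Tox points above 0, and the 3 filled squares are 2 Tox regions (0.52 and 0.67) and 1 Tox2 region (-0.66).

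Whether the change between subsets differed by genotype was asked with the interaction, in which edgeR called 0 of the 118 regions and 0 of 76216 in all, with 3093 at an unadjusted p under 0.05. Neither DESeq2 nor limma-voom called any. Among the 118, 7 had an unadjusted p under 0.05 with edgeR, 4 with DESeq2 and 6 with limma-voom, none of them called. The smallest p of a Lef1 region between genotypes in eTreg cells was 59.1 kb downstream of the start (chr3:131169203-131169687), at 15.4 and 18.9 CPM in FntbKO eTreg, 11.6 and 11.8 CPM in FntbKO cTreg, 8.43, 9.46 and 11.02 CPM in WT eTreg, and 11.9, 12.2 and 12.7 CPM in WT cTreg libraries. FntbKO eTreg libraries were the highest and WT eTreg libraries the lowest. The FntbKO over WT difference in eTreg cells was 0.85 on the log2 scale (SE 0.21; edgeR adjusted p = 0.0616), and it passed without WT cTreg 2 (adjusted p = 0.0467), with DESeq2 (adjusted p = 0.0480), with limma-voom (adjusted p = 0.0405) and with halved counts (adjusted p = 0.0421).

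The other genes of these pathways were read from lists, as regions called in each direction beside the share called among all regions. Of 4 relatives (Tcf7l1, Tcf7l2, Tox3 and Tox4) with 35 regions, 3 regions rose and 6 fell in eTreg against cTreg cells with genotypes averaged, which is 25.7% where 11% of all regions were called. A Tcf7l1 region (chr6:72659754-72660403) averaged 5.56 ± 0.63 CPM in FntbKO eTreg against 1.45 ± 0.89 CPM in FntbKO cTreg, and 6.02 ± 0.84 CPM in WT eTreg against 2.46 ± 1.02 CPM in WT cTreg cells (SD, n = 2 and 3; log2 1.56, edgeR adjusted p = 0.00103). A Tcf7l2 region (chr19:55689662-55690003) averaged 5.37 ± 1.19 CPM in FntbKO eTreg against 11.3 ± 1.79 CPM in FntbKO cTreg, and 3.39 ± 0.99 CPM in WT eTreg against 8.35 ± 0.88 CPM in WT cTreg cells (log2 -1.18, adjusted p = 0.000637). Tcf7l1 and Tcf7l2 thus had calls in opposite directions. Between genotypes with subsets averaged, 1 region of the relatives was called, lower, at Tcf7l2.

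Of 24 genes of beta-catenin partners and Wnt feedback 23 had a region, 187 in all. With genotypes averaged 8 rose and 10 fell in eTreg cells (9.63%, beside 11%), and with subsets averaged 2 rose and 3 fell in FntbKO cells (2.67%, beside 3.99%), shares under those of all regions. The smallest p between subsets was at a Csnk1a1 region (chr18:61622044-61622545), which rose in eTreg cells (log2 2.27, edgeR adjusted p = 0.000163). A region of Znrf3 (chr11:5411562-5412010), whose product removes Wnt receptors from the cell surface, averaged 18.7 ± 1.36 CPM in FntbKO eTreg against 32.8 ± 4.71 CPM in FntbKO cTreg, and 14.7 ± 2.79 CPM in WT eTreg against 25.2 ± 6.57 CPM in WT cTreg cells (log2 -0.79, adjusted p = 0.000697). Between genotypes, regions of Lrp6 (log2 -3.04, adjusted p = 0.000378) and Axin2 (log2 -0.50, adjusted p = 0.00274) were among those that fell. Another Znrf3 region was among those that rose (log2 0.52, adjusted p = 0.0115). Of 155 regions of 19 other HMG-box genes, 2 rose and 11 fell in eTreg cells (8.39%), a Sox4 region (chr13:28959539-28959975) with log2 -0.67 (adjusted p = 0.000847) among them. Between genotypes edgeR called 0 of these 155 with subsets averaged, where 21 had an unadjusted p under 0.05, DESeq2 called 0 and limma-voom 1.

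The 21 T cell genes described as targets or partners of TCF1 or LEF1 had 489 regions, of which 18 rose and 68 fell in eTreg cells with genotypes averaged (17.6%, beside 11%; median log2 difference -0.12). A region of Bach2, which encodes a repressor of effector programmes (chr4:32291345-32291974), averaged 18.7 ± 0.23 CPM in FntbKO eTreg against 34.8 ± 7.19 CPM in FntbKO cTreg, and 15.5 ± 3.60 CPM in WT eTreg against 28.7 ± 4.57 CPM in WT cTreg cells (log2 -0.88, edgeR adjusted p = 0.000137). Between genotypes with subsets averaged 15 rose and 4 fell (3.89%, beside 3.99%). Among the 15 that rose, a Ccr7 region (chr11:99170670-99171340) averaged 43.1 ± 3.46 CPM in FntbKO eTreg against 22.5 ± 4.17 CPM in WT eTreg cells. It had 42.2 ± 2.88 CPM in FntbKO cTreg against 40.0 ± 6.86 CPM in WT cTreg cells (log2 0.50, adjusted p = 0.00716). Among the 4 that fell, a Runx1 region (chr16:92653808-92654254) averaged 6.55 ± 0.92 CPM in FntbKO eTreg against 13.9 ± 2.06 CPM in WT eTreg cells. It had 2.38 ± 0.66 CPM in FntbKO cTreg against 6.78 ± 2.49 CPM in WT cTreg cells (log2 -1.26, adjusted p = 0.00104).

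The 18 genes described with TOX in chronically stimulated T cells had 270 regions, of which 39 rose and 10 fell in eTreg cells with genotypes averaged (18.1%, beside 11%; median log2 difference 0.07). A region of Tigit (chr16:43661552-43661888), which encodes an inhibitory receptor, averaged 10.6 ± 1.41 CPM in FntbKO eTreg against 3.41 ± 2.51 CPM in FntbKO cTreg, and 18.4 ± 4.26 CPM in WT eTreg against 8.12 ± 0.40 CPM in WT cTreg cells (log2 1.35, adjusted p = 0.000299). An Nfatc2 region (chr2:168532235-168532810) fell by 1.73 (adjusted p = 0.000180). Between genotypes with subsets averaged 0 rose and 9 fell (3.33%, beside 3.99%).

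By likeness of pattern, measured as Pearson's r of log2 CPM of gene sums over the 10 libraries among 5895 genes, the Tcf7 sum was closest to Ms4a6c (0.97), Ccr7 (0.96), B3gnt2 (0.93), Cd2 (0.93) and Hdac9 (0.92). Lef1 was closest to Rftn1 (0.96), Ttll5 (0.95), Dgkd (0.95), Peak1 (0.94) and Disp1 (0.93). Tox was closest to Ext1, Dthd1, Filip1l, Bcl6 and E2f3, from 0.97 to 0.98, and Tox2 to Slco4a1, Galnt2, Slc38a1, Abca5 and Zcwpw2, from 0.96 to 0.98. The values share libraries and depth and are a description over 4 groups.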

How the data were processed

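Counts of ATAC-seq reads per region were deposited by the authors as 1 table of 10 libraries. Per the submitters' processing notes, MACS2 2.1.1, bedtools, SAMtools, Picard 2.9.4 and Trimmomatic 0.36 were used with mm10 (GRCm38), and the aligner and the merging of peaks are not given in the sources used here. Coordinates stand as in the table, which does not say whether starts count from 0 or 1. Between 66.73% and 79.24% of counts were even, so halved counts were an alternative.

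edgeR 4.0.16 (R 4.3.3) fitted 1 mean per group over all 10 libraries (TMM, robust quasi-likelihood, 6 residual degrees of freedom), with Benjamini-Hochberg adjustment over the 76216 regions, or 15895 gene sums, that passed its filter on low counts. The threshold was an adjusted p of 0.05. SE is the log2 difference over the root of F. Alternatives were DESeq2 1.42.0, limma-voom 3.58.1, library totals, no filter, halved counts, a replicate block and libraries left out. Regions were named if called, most open, or smallest in p for a gene. The members and lists were chosen with earlier results of these data known. Some listed genes are not reported here by name. Replicates differed at a chi-square of 2.44 to 3.55 per region on the counts as deposited. Since most of these counts were even, the part of this that is counting noise was not told apart.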

Additional observations from a re-analysis of the deposited data

Results flagged for a closer look

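The Lef1 region 59.1 kb downstream of the start (chr3:131169203-131169687) had differences of opposite sign in the 2 genotypes and in the 2 subsets, with no overlap between the libraries compared. Its eTreg over cTreg difference on the log2 scale was 0.56 in FntbKO cells and -0.36 in WT cells. Its FntbKO over WT difference was 0.85 in eTreg cells and -0.07 in cTreg cells, the last a small one. With edgeR on all 10 libraries none of the 4 passed, while that in eTreg cells passed with DESeq2 (adjusted p = 0.0480) and limma-voom (adjusted p = 0.0405). Groups did not overlap at 48.6% of all regions between subsets in FntbKO cells and 21.9% in WT cells, and between genotypes at 31.1% in eTreg and 29.7% in cTreg cells. The interaction was 0.92 (SE 0.29), with an unadjusted edgeR p of 0.0042 and an adjusted p of 0.9999. The groups hold 2 or 3 libraries each.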

How the results depend on the processing

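Of 37 calls on single regions, 7 held in every setting tried, namely the eTreg over cTreg differences averaged over genotypes at the Lef1 region 89.8 kb, the Tox regions 15.6 and 20.9 kb and the Tox2 regions 36.4 and 47.7 kb from the start, and the averaged genotype differences at the Tox2 regions 26.2 and 96.1 kb from it. Counts below are of member regions called. In eTreg cells between genotypes, where edgeR called 0, DESeq2, limma-voom and halved counts called 1 each. limma-voom called 3 between subsets in WT cells and 1 between genotypes in cTreg cells, and halved counts called 5 between subsets in FntbKO cells. Without WT cTreg 2 and FntbKO cTreg 1 together, 1 was called between subsets in FntbKO cells, and between genotypes 0 in cTreg cells, 2 in eTreg cells and 3 with subsets averaged. Leaving out 1 library gave 0 to 5 calls between subsets in FntbKO cells, 0 to 9 in WT cells and 5 to 26 with genotypes averaged, and between genotypes 0 to 1 in eTreg cells, 0 to 4 in cTreg cells and 3 to 10 with subsets averaged.

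On gene sums, DESeq2 and library totals each called 1 gene between genotypes in eTreg cells. Without both libraries together, 2 were called there, 0 in cTreg cells, 0 between subsets in FntbKO cells and 2 in WT cells. Leaving out 1 library gave 0 to 2 calls in each of these comparisons but the genotypes in eTreg cells, with 0 to 1. Some uncalled sums changed sign. The Lef1 interaction was -0.020 without WT eTreg 1, -0.0039 without WT cTreg 2, -0.042 without WT eTreg 3, -0.020 without FntbKO cTreg 2 and -0.015 without FntbKO eTreg 2, and the Lef1 genotype difference in eTreg cells ran from -0.0011 without WT eTreg 3 to 0.12 without WT eTreg 2. The Tcf7 subset difference in FntbKO cells was -0.037 without both libraries and, leaving out 1, ran from -0.040 (FntbKO cTreg 1) through -0.0020 (FntbKO eTreg 2) to 0.062 (FntbKO cTreg 2). The Tcf7 genotype difference in cTreg cells ran from -0.015 without FntbKO cTreg 2 to 0.087 without FntbKO cTreg 1. The Tox interaction ran from -0.16 without FntbKO cTreg 2 to 0.030 without FntbKO cTreg 1 and was 0.080 without both, and that of Tox2 -0.0032 without both. The cause was not tested.

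Same-numbered WT libraries deviated together with r of 0.165, 0.083 and 0.032, and FntbKO ones with 0.180, where 2 libraries a group give both numbers the same r. Across genotypes, FntbKO and WT libraries of the same number had r of 0.115 and 0.141 in cTreg and 0.042 and -0.016 in eTreg cells. The pairs of WT numbers 2 and 3 fell short of the limit set for pairing, so the numbers were not taken as pairs, and not every library correlated best with its own number. The labels do not say whether same-numbered libraries of the chimeras shared a host mouse, and the main fit leaves out any such pairing. With a replicate block, member regions called numbered 6 between subsets in FntbKO cells and 22 with genotypes averaged, and between genotypes 4 in eTreg and 5 in cTreg cells, while gene sums called numbered 2 between subsets in FntbKO cells and 2 between genotypes in eTreg cells, Tcf7 (log2 0.23; adjusted p = 0.0443) and Tox2 (log2 -0.34; adjusted p = 0.0221). The block also brought in the Tcf7 region 7.77 kb downstream between genotypes with subsets averaged (log2 0.38; adjusted p = 0.00526), that 27.6 kb upstream between subsets with genotypes averaged (log2 -0.58; adjusted p = 0.0468), and the Lef1 region 59.1 kb downstream between genotypes in eTreg cells (log2 0.90; adjusted p = 0.0340). Over all regions the block gave 2476 calls between subsets in FntbKO, 4150 in WT cells, and between genotypes 654 in eTreg and 990 in cTreg cells.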
